A study of Mus musculus with 87 samples.

Results

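Nrf2, the product of Nfe2l2, is the transcription factor that directs the antioxidant response, and its transcript was followed here together with those of its inhibitor Keap1 and 8 of its known target genes through liver regeneration. The members were chosen by name from the deposited table, as the genes listed under the symbols Nfe2l2, Keap1, Nqo1, Gclc, Gclm, Hmox1, Txnrd1, Srxn1, Slc7a11 and Gsr. These are 10 of the 37991 genes of the table, and each symbol belonged to a single gene. Of the 10, 9 were above the detection threshold (log2 RPKM above -1.5, where RPKM is a read count scaled to transcript length and library size) in at least 1 library, and they are among 15396 genes of which this was true.

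The study removed most of the liver of C57BL/6 mice by partial hepatectomy (PH) and collected the regrowing liver, with each library made from the poly(A)-containing RNA of 1 liver. All mice were males that ate only in the dark period, and those operated on were 12 to 14 weeks old at surgery, which took place under isoflurane at zeitgeber time (ZT) 2, which is 2 h after lights on. Resting livers taken at 0 h without surgery form C0 (n = 9), and other mice without surgery form C4 (n = 3, collected at ZT6) and C4W (n = 2, the untreated control of the 4-week group). Sham-operated mice had the abdomen opened and closed with no resection and gave S1 (n = 6), S4 (n = 5), S10, S20 and S48 (n = 3 each), where the number gives hours after surgery. Livers after PH gave X1 (n = 6), X4 (n = 3), X10 and X20 (n = 6 each), X28 (n = 3), X36 (n = 6), X44 (n = 3), X48 (n = 5) and X72 (n = 3), followed by X1W after 1 week (n = 3) and X4W after 4 weeks (n = 2). Surgery always took place at the same ZT, so time after surgery and time of day move together, and the groups X4 and X28 (ZT6), X20 and X44 (ZT22) and C0, X48 and X72 (ZT2) share a clock time.

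Of 87 labelled samples, 80 libraries in 19 groups were analysed, and their estimated depth ran from 12.2 to 48.9 M reads with a median of 26.7 M reads. Within groups, the correlation between libraries lay between 0.966 and 0.995, and no pair of libraries held identical values. The hepatocyte markers Alb and Apoa1 were abundant in all 80 libraries, with Alb never below 16059 RPKM. C0 replicate 8 stood apart from the other C0 livers in 8 markers of Kupffer cells and macrophages, whose summed level was 152.9 RPKM there and 9.71 to 30.7 RPKM in the other 8 livers, and in 7 neutrophil markers, whose sum was 46.8 RPKM there and 0.361 to 5.02 RPKM elsewhere. In whole liver RNA, fewer cells of a type and less RNA per cell cannot be told apart.

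In resting cells, Keap1 holds Nrf2 in the cytoplasm and hands it to a Cul3 ubiquitin ligase for destruction. Oxidants and electrophiles modify Keap1, and Nrf2 then enters the nucleus, pairs with a small Maf protein and binds the antioxidant response element (ARE) of its target genes. Control of Nrf2 is therefore largely a matter of protein stability, which transcript levels do not report. The targets followed here make glutathione (Gclc and Gclm encode the catalytic and the modifier subunit of glutamate-cysteine ligase, Slc7a11 the cystine importer), recycle it (Gsr, glutathione reductase), keep thioredoxin and peroxiredoxins reduced (Txnrd1, thioredoxin reductase, and Srxn1, sulfiredoxin), reduce quinones (Nqo1) and break down heme (Hmox1). In liver, this program serves to detoxify xenobiotics and reactive oxygen.

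The core letters of the ARE are TGACNNNGC. Promoter stretches that carry these letters, or TGANTCAGC for Srxn1, are shown here as possible sites of Nrf2 action. RefSeq promoter windows (GRCm38.p6), from 250 bases before to 50 bases after a transcription start, were matched to 7 of the 10 members and gave 9 windows. Gclc, Hmox1 and Gsr had no entry in the table searched. TGACNNNGC was searched on both strands, and it occurred in 4 of the 9 windows, 1 each of Nfe2l2, Gclm, Txnrd1 and Srxn1, against 12.4% of all 32851 windows of the same length. The letters TGANTCAGC, which begin with the letters bound by AP-1 factors, occurred in the Srxn1 window and in 1.19% of all windows. The match is in capitals in each stretch below, and each stretch is written 5′ to 3′ along the strand of its gene.
Nfe2l2, chr2:75704855-75704913, minus strand, match ending 232 bases before the start: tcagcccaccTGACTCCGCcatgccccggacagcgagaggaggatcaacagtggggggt
Gclm, chr3:122245383-122245471, plus strand, match ending 126 bases before the start: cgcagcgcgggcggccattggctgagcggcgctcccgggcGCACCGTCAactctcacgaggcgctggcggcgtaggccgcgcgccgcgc
Txnrd1, chr10:82859074-82859162, plus strand, match ending 84 bases before the start: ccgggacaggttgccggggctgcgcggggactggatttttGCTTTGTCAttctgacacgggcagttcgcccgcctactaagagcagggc
Srxn1, chr2:152105439-152105523, plus strand, match ending 37 bases before the start: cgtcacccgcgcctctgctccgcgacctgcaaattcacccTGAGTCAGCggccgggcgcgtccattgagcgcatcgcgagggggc
In the Gclm and Txnrd1 stretches, the match lies on the opposite strand, so that the capitals are the reverse complement of the motif. The TGACNNNGC match of Srxn1 lies after the start and is not shown. A match describes the letters only, and no binding was measured in the values used here. Sequence beyond the windows was not searched, so a window without a match does not show that a gene lacks an ARE.

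The first question was when, after PH, the transcripts of this pathway departed from the resting liver. Each of the 9 detected members was compared with C0 in each of the 11 groups after PH, with limma on log2(RPKM + 0.25), and was called where the Benjamini-Hochberg adjusted p was below 0.05 and the log2 fold change was beyond 0.5. Of 99 such pairs of a gene and a time, 50 were called, 40 higher and 10 lower. The comparisons share the C0 livers and are therefore not independent of each other. Hmox1, Txnrd1 and Srxn1 made up most of the higher calls (8, 9 and 8 of 11 times), whereas Gclc and Gclm had lower calls only (6 and 2 of 11 times).

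**Figure D1:**
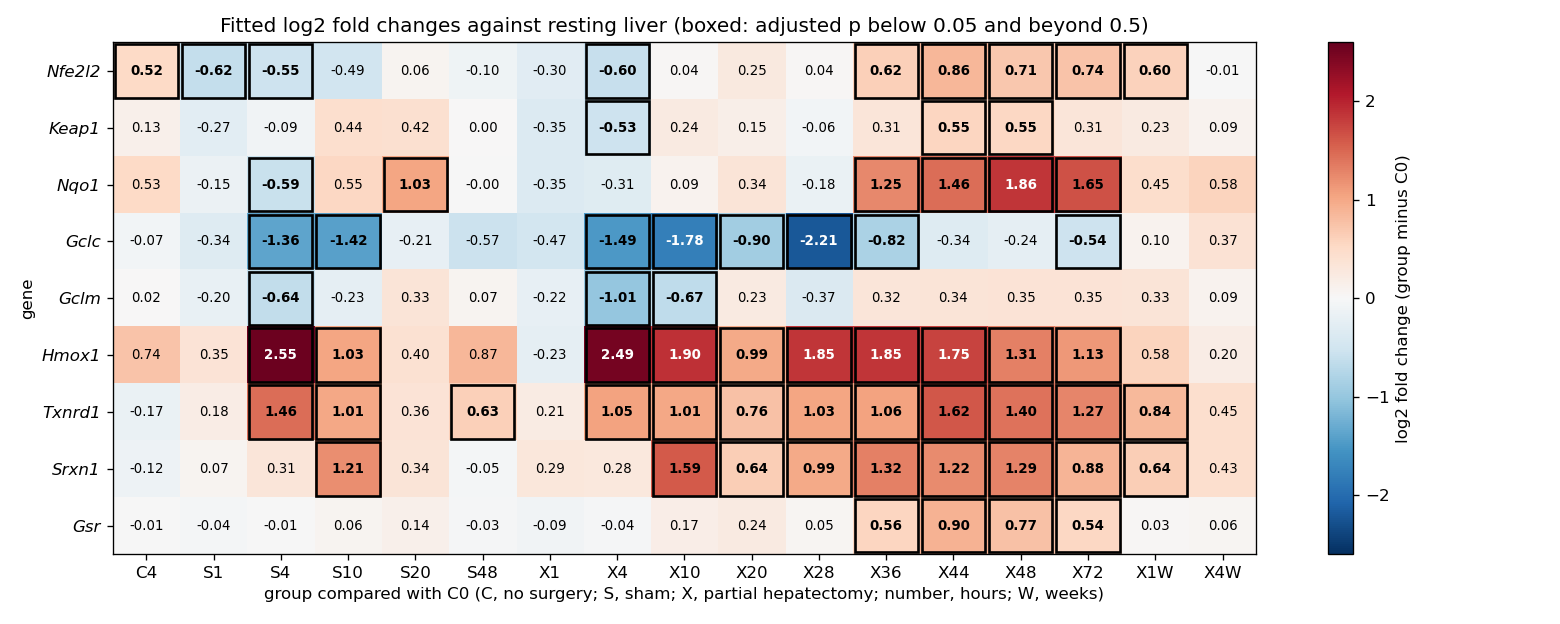
Fitted log2 fold changes of the 9 detected members (rows) in each group against C0 (columns), with the unoperated ZT6 group first, then the sham groups and the groups after PH. Boxes mark called values, and the 2 largest rises are those of Hmox1 at S4 (2.55) and X4 (2.49) while the largest fall is that of Gclc at X28 (-2.21).

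At 1 h, limma called 0 of 9 members, where it called 13.5% of all 15396 genes. The unadjusted p was below 0.05 in 6 of the 9, and Nfe2l2 (-0.30), Keap1 (-0.35) and Gclc (-0.47) had an adjusted p below 0.05 and a difference under the fold limit. At 4 h, 6 of 9 were called, 2 higher and 4 lower, beside 38.2% of all genes. The counts were then 5 of 9 at 10 h (36.4% of all genes), 4 of 9 at 20 h (24.1%), 4 of 9 at 28 h (24.9%) and 7 of 9 at 36 h (35%). At 44 h and 48 h, 7 of 9 were called and all 7 were higher, where 39.2% and 38.1% of all genes were called and 30.8% and 30.4% were called higher. At 72 h, 7 of 9 were called (33.2% of all genes), at 1 week 3 of 9 (16.9%) and at 4 weeks 0 of 9 (5.62%), where 3 had an unadjusted p below 0.05. The median member changed by -0.31 at X4, 0.17 at X10, 0.90 at X44 and 0.77 at X48 on the log2 scale, where the median of all genes changed by -0.20, 0.07, 0.23 and 0.24.

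That shift of the median gene matters for the modest changes. Scaling every library to the same median changed the number of called pairs from 50 to 36 (26 higher and 10 lower), and scaling every library to a median gene-wise difference of 0 from the mean library gave 40 (30 higher and 10 lower). The share of higher among all called genes moved from 79.9% to 27.5% and 42.8% with these scalings at X48, and from 29.5% to 46.6% and 48.8% at X4. The rises of Hmox1, Txnrd1, Nqo1 and Srxn1 from X36 to X48 and the falls of Gclc from X4 to X36 were called with either scaling. No call of Keap1 was kept with either. No call of Nfe2l2 or Gsr after PH was kept with the median scaling (0.39 and 0.43 at X44), and with the gene-wise scaling only those at X44 were (0.55 and 0.59).

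The livers were collected in several experimental periods, which some groups do not share. The period of each liver was assumed from the order of the replicate numbers, and with it as a covariate the 50 calls after PH became 45. The calls lost were those of Nfe2l2 at X4 (-0.45), Keap1 at X44 and X48 (0.46 each), Gsr at X36 (0.44) and X72 (0.39), Srxn1 at X1W (0.50) and Gclc at X72 (-0.58, adjusted p = 0.055). Those gained at X1W were Nqo1 (0.66) and Hmox1 (1.05).

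**Figure D2:**
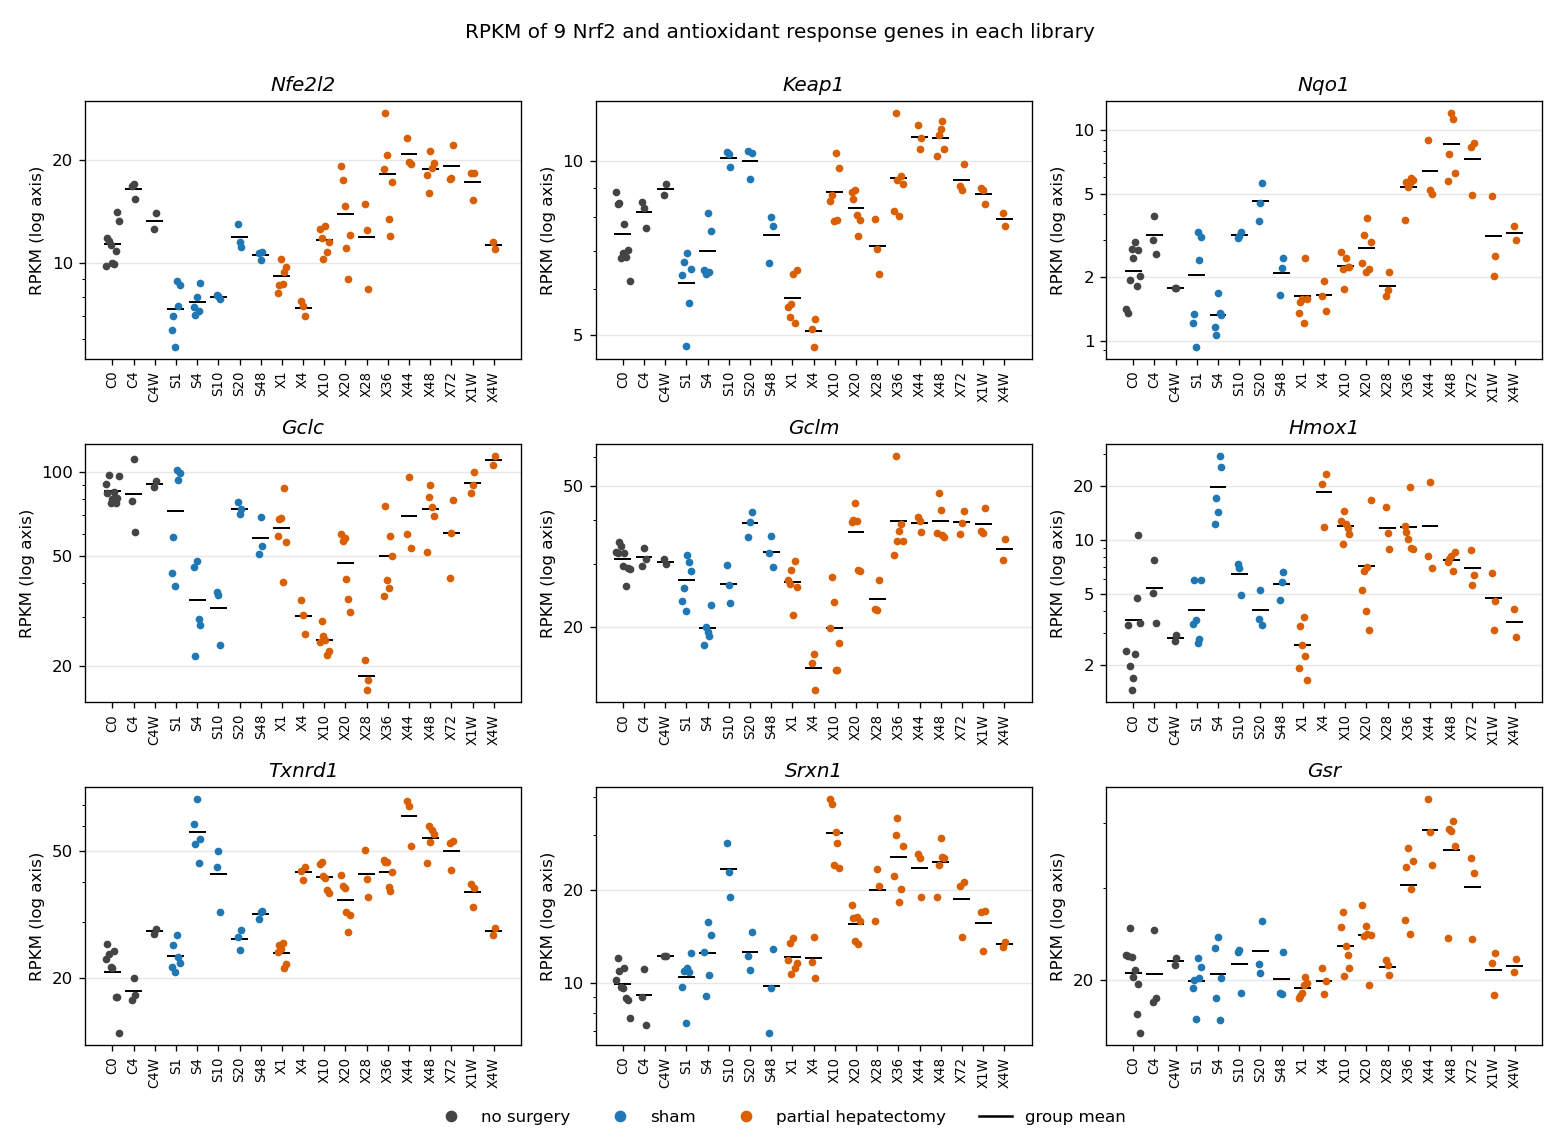
RPKM of the 9 detected members on a log axis, 1 panel per gene, with 1 point per liver and a bar at the mean of each group (grey, no surgery; blue, sham; orange, PH). The values of Gclc after PH are lowest at X28, between 16.3 and 21.0 RPKM, and those of Nqo1 are highest at X48, between 5.75 and 12.1 RPKM.

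Nfe2l2 (mm9 chr2:75513570-75542698, minus strand, ENSMUSG00000015839), the gene of Nrf2 itself, was at 9.83 to 14.1 RPKM in C0, with a median of 11.3 RPKM. At X4 its 3 livers were at 7.75, 7.48 and 7.02 RPKM, all below every C0 liver, and the transcript fell by 0.60 on the log2 scale (SE 0.15, adjusted p = 0.00048). At X44 it stood at 23.2, 19.8 and 19.5 RPKM, all above every C0 liver, and the rise was 0.86 (SE 0.15, adjusted p = 1.17e-06). Nfe2l2 was also called higher at X36 (0.62), X48 (0.71), X72 (0.74) and X1W (0.60), and at X4W, with 11.6 and 11 RPKM, it lay within the C0 range. At X20 its livers spread widely, with replicates 1 to 3 at 19.2, 17.5 and 14.7 RPKM and replicates 4 to 6 at 11.1, 9.02 and 12.1 RPKM, and Gclc divided the same livers in the same way, as given with the comparison with sham.

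Keap1 (mm9 chr9:21034174-21043776, minus strand, ENSMUSG00000003308), the adaptor that marks Nrf2 for destruction, moved over a narrow range, from a group mean of 5.08 ± 0.29 RPKM (SD, n = 3) at X4 to 11 ± 0.52 RPKM (SD, n = 3) at X44. In C0 it lay between 6.21 and 8.86 RPKM. At X4 the livers were at 5.13, 4.76 and 5.34 RPKM, below all C0 livers, with a fall of 0.53 (SE 0.09, adjusted p = 2.10e-06). At X44 and X48 all livers were above the C0 range, at 10.2 to 11.7 RPKM, with rises of 0.55 each. At 4, 44 and 48 h, Keap1 and its substrate Nfe2l2 were called in the same direction, both against the same C0 livers. The median of all genes moved the same way at these times (-0.20, 0.23 and 0.24). With the median scaling neither gene was called at them (Keap1 -0.37, 0.08 and 0.10, Nfe2l2 -0.44, 0.39 and 0.26). With the gene-wise scaling only Nfe2l2 at X44 was (0.55). Without X4 replicate 5, the X4 fall of Keap1 dropped under the fold limit.

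Glutamate-cysteine ligase, the enzyme that sets the rate of glutathione synthesis, had the largest losses. Gclc (mm9 chr9:77602342-77642292, plus strand, ENSMUSG00000032350), its catalytic subunit, was between 77.5 and 98.1 RPKM in C0 and was the most abundant member per kilobase there. It stood at 34.6, 30.5 and 26.0 RPKM at X4, at 21.9 to 29.1 RPKM with a median of 24.6 at X10, and at 21.0, 16.3 and 17.8 RPKM at X28. None of these 12 livers reached the C0 range. Gclc fell by 1.49 on the log2 scale at X4 (SE 0.23, adjusted p = 1.15e-07), and it fell by 1.78 at X10 (SE 0.18, adjusted p = 3.13e-13) and by 2.21 at X28 (SE 0.23, adjusted p = 4.18e-12). The X28 value corresponds to 0.216 of the C0 level.

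Between these low points, Gclc was less reduced at X20, where it fell by 0.90 (SE 0.18, adjusted p = 2.89e-05). At X36 it fell by 0.82, and at X72 it fell by 0.54 with livers at 41.6, 60.4 and 79.2 RPKM that overlapped C0. That last call (adjusted p = 0.042) was lost without X72 replicate 1 or 2. At X1W the livers were at 84.2, 90.2 and 101 RPKM, and at X4W at 107 and 115 RPKM, above all 9 C0 livers, although the X4W difference was not called (0.37, SE 0.27). At X44 and X48 it was not called with the values as deposited (-0.34 and -0.24), and it was called lower with the median scaling (-0.81 and -0.69) and the gene-wise scaling (-0.65 and -0.56).

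Gclm (mm9 chr3:121948475-121972902, plus strand, ENSMUSG00000028124), the modifier subunit, was called lower at X4 and X10 only. From 26.1 to 34.6 RPKM in C0 it went to 15.8, 16.8 and 13.3 RPKM at X4, where it fell by 1.01 (SE 0.13, adjusted p = 2.27e-09). At X10 it fell by 0.67 (SE 0.11, adjusted p = 1.40e-07), with livers between 15.1 and 27.6 RPKM that overlapped C0. At X28, where Gclc was lowest, Gclm, at 22.4, 22.3 and 27.04 RPKM, was not called (-0.37, SE 0.13). From X36 to X1W, Gclm had positive differences of 0.32 to 0.35 that stayed under the fold limit.

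Slc7a11 (mm9 chr3:50168858-50247535, minus strand, ENSMUSG00000027737), the cystine importer, was not detected at the threshold in any library. It was listed at 0 in 47 of 80 libraries and reached at most 0.0423 RPKM, about 16.9 estimated reads, in S4 replicate 3. The 5 S4 livers were the only group in which it was above 0 in every liver and n was over 1, at 0.0045 to 0.0423 RPKM. At these levels no fold is given.

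Gsr (mm9 chr8:34762995-34808635, plus strand, ENSMUSG00000031584), which regenerates reduced glutathione, was not called lower at any time. Its levels at X4 (18.8 to 21.1 RPKM) and X28 (20.4 to 21.8 RPKM) lay inside the C0 range of 15.8 to 25.2 RPKM. It was called higher at X36 (0.56), X44 (0.90, SE 0.12, adjusted p = 3.02e-09), X48 (0.77) and X72 (0.54), with X44 livers at 44.5, 38.5 and 33.2 RPKM above all C0 livers. At X48, replicate 1 was at 24.02 RPKM and the other 4 livers at 36.1 to 40.3 RPKM. Without X72 replicate 1 or replicate 3, the X72 difference was no longer called.

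Hmox1 (mm9 chr8:77617490-77624495, plus strand, ENSMUSG00000005413), the inducible heme oxygenase, had the largest rise. In C0 it lay at 1.44 to 10.7 RPKM with a median of 2.41, and the highest liver was replicate 8. At X4 its livers were at 20.4, 11.8 and 23.2 RPKM, above all 9 C0 livers, and it rose by 2.49 on the log2 scale (SE 0.34, adjusted p = 7.22e-09), a 5.62-fold difference. It remained called from X10 (1.90) to X72 (1.13) at each of the 7 times, with X10 at 9.39 to 14.4 RPKM and X36 at 8.88 to 19.6 RPKM, and was not called at X1, X1W or X4W. From X10 to X72 the ranges overlapped that of C0, in every group but X20 through C0 replicate 8 alone.

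Kupffer cells, the macrophages of the liver, are rich in heme oxygenase, so their markers are given beside it. At X4, 0 of 8 macrophage markers were called higher and 4 lower (26.9% of all genes were lower), with a median of -0.80 on the log2 scale and a summed level of 11.8 to 15.1 RPKM against 9.71 to 152.9 RPKM in C0. None of the 8 markers was at 0 in any library. At X48, 2 of 8 were higher and at X1W 3 of 8, beside 30.4% and 12.4% of all genes. Globin and other erythroid markers were called higher in 4 of 5 genes at X28, X36 and X44, beside 13.6%, 25.7% and 30.8% of all genes. The part of these cells in the Hmox1 values was not tested. Without C0 replicate 8, Hmox1 rose by 2.71 at X4 and was also called at X1W (0.80, adjusted p = 0.043). C0 replicates 7 to 9 were higher in Hmox1 (4.72, 10.7 and 3.43 RPKM) than replicates 1 to 6 (1.44 to 3.33 RPKM). Against replicates 7 to 9 alone, the calls at X20, X48 and X72 were lost. In that fit X1 was called lower (-1.10), and X4 stood at 1.62 (adjusted p = 0.00032). By the assumed order, no liver after PH or sham shared the period of these C0 livers, so operation and period cannot be told apart there. The calls at X20 and X72 were also lost when only those groups and C0 entered the fit. That at X72 was lost with the median scaling too (0.78, adjusted p = 0.050). With the period as covariate and all C0 livers, Hmox1 was called higher at X20 (1.425), X48 (1.778) and X72, and was not called at X1.

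Both genes of thioredoxin and peroxiredoxin reduction rose after PH. Txnrd1 (mm9 chr10:82296696-82360469, plus strand, ENSMUSG00000020250), cytosolic thioredoxin reductase, lay at 13.4 to 25.6 RPKM in C0 and at 43.4, 40.7 and 44.5 RPKM at X4, with a rise of 1.05 (SE 0.13, adjusted p = 1.68e-10). It was called higher at every time from X4 to X1W and was highest at X44, at 71.7, 69.4 and 51.8 RPKM (1.62, SE 0.13, adjusted p = 1.06e-17). In none of these groups did a liver fall into the C0 range. At X4W, its 27.3 and 28.7 RPKM were above the C0 livers, with a difference of 0.45 under the fold limit, and the untreated C4W livers were at 27.5 and 28.5 RPKM.

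Srxn1 (mm9 chr2:151931252-151937112, plus strand, ENSMUSG00000032802), which repairs overoxidized peroxiredoxins, was not called at X4 (11.6, 14.0 and 10.4 RPKM against 7.69 to 12.0 RPKM in C0). At X10 it was at 23.5 to 39.3 RPKM with a median of 29.4, above all C0 livers, and rose by 1.59 (SE 0.13, adjusted p = 2.05e-16). A lower level followed at X20 (0.64), where livers were at 13.3 to 17.9 RPKM, and a new rise at X36 (1.32, SE 0.13, adjusted p = 2.40e-13) and X48 (1.29). The X20 call fell under the fold limit with both scalings (0.43 and 0.47), and the X1W call (0.64) with the median scaling (0.44).

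Nqo1 (mm9 chr8:109912125-109927106, minus strand, ENSMUSG00000003849), the quinone reductase often used as a readout of Nrf2, was low in resting liver, at 1.35 to 2.94 RPKM. It was not called from X1 to X28, where livers lay between 1.22 and 3.83 RPKM. At X36 it was at 3.73 to 5.95 RPKM with a median of 5.66, and at X48 at 5.75, 7.73, 12.1, 11.4 and 6.30 RPKM, in both cases above all C0 livers. The rises were 1.25 at X36 (SE 0.19, adjusted p = 3.25e-08), 1.46 at X44, 1.86 at X48 (SE 0.20, adjusted p = 1.11e-12) and 1.65 at X72. At its lowest in any library, Nqo1 had about 45.9 estimated reads, the fewest of the 9 detected members.

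The second question was which of these changes depended on the resection, and it is answered by PH against sham at the same hour after surgery. Of 45 pairs of a gene and a time, 8 were called, 7 higher and 1 lower, and 6 of them were at 48 h. At 1 h and 4 h limma called 0 of 9 members each, beside 0.65% and 8.64% of all genes, and 1 and 3 members had an unadjusted p below 0.05. At 10 h and 20 h, 1 of 9 was called each time, beside 7.02% and 7.11%. At 48 h, 6 of 9 were called, all higher, beside 27.2% of all genes called and 24.5% called higher.

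**Figure D3:**
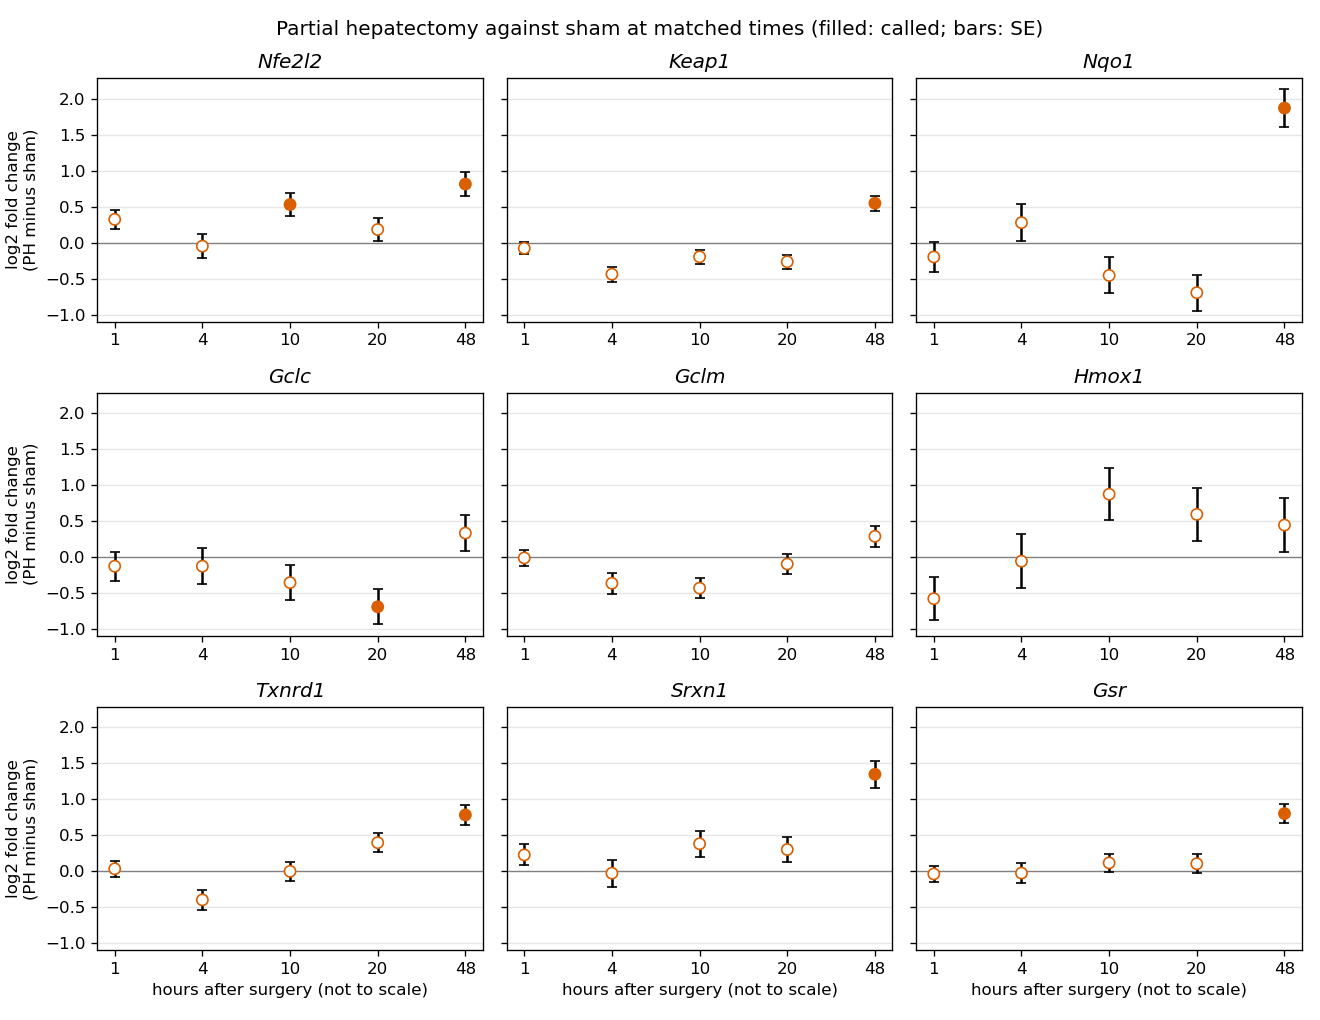
Fitted log2 fold change of PH against sham at the 5 times with sham livers, from 1 h to 48 h, for each detected member, with bars of 1 standard error. Filled points are called, and 6 of the 8 filled points are at 48 h, where Nqo1 is highest at 1.87.

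At 1 h, Nfe2l2 was the 1 of 9 members called in sham livers (S1 against C0, 7.77% of all genes), where it fell by 0.62 (SE 0.12, adjusted p = 5.78e-05) to between 5.69 and 8.88 RPKM, below all C0 livers. With the median scaling it was under the fold limit (-0.50). The X1 livers, at 8.19 to 10.3 RPKM, overlapped both groups. Gclc was uneven among the S1 livers, at 43.4, 58.3 and 38.9 RPKM in replicates 1 to 3 and 102, 93.9 and 99.5 RPKM in replicates 4 to 6. Within replicates 1 to 3 the difference of X1 from S1 was 0.49 (adjusted p = 0.27) and within replicates 4 to 6 it was -0.75 (adjusted p = 0.14), so that the 2 sets of livers differed in sign and neither was called.

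At 4 h, sham livers also differed from resting liver. Of the 9 members, 6 were called at S4 against C0, 2 higher and 4 lower, beside 34.4% of all genes. With either scaling 4 were called, since Nfe2l2 (-0.43 and -0.46) and Nqo1 (-0.47 and -0.50) fell under the fold limit, as Nfe2l2 did with the period as covariate (-0.48). Hmox1 was at 12.2 to 29.2 RPKM in the 5 S4 livers and at 11.8 to 23.2 RPKM in the 3 X4 livers, with overlapping ranges and a difference of -0.06 (SE 0.38). Gclc was at 21.7 to 47.9 RPKM at S4 and 26.0 to 34.6 RPKM at X4, with a difference of -0.13 (SE 0.25). With standard errors of this size, the absence of a call does not show that the operations acted alike. Txnrd1 was higher after sham, at 46.0 to 73.0 RPKM, than after PH, and Keap1 was lower after PH, and both differences (-0.40, adjusted p = 0.040, and -0.44, adjusted p = 0.0015) were under the fold limit. At S4, 4 of 6 neutrophil markers were called higher than in C0, beside 11.7% of all genes. The summed level of neutrophil markers was 6.93 to 42.0 RPKM at S4 and 4.49 to 9.44 RPKM at X4. Their part in the S4 values was not tested.

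At 10 h, 4 of 9 members were called at S10 against C0 (29.1% of all genes). These were Hmox1 (1.03), Txnrd1 (1.01), Srxn1 (1.21) and Gclc (-1.42), of which Hmox1 was lost without S10 replicate 1 or 2. With either scaling Nfe2l2 was called lower as well (-0.69 and -0.64). Against S10, only Nfe2l2 was called at X10, at 10.3 to 12.9 RPKM against 8.10, 8.01 and 7.85 RPKM (0.53, SE 0.16, adjusted p = 0.019). This call is close to the fold limit and was lost without any single S10 replicate and with the period as covariate (0.46). Hmox1 did not overlap between X10 (9.39 to 14.4 RPKM) and S10 (7.31, 6.97 and 4.91 RPKM), with a difference of 0.87 that was not called (SE 0.36, adjusted p = 0.11).

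At 20 h, 1 of 9 members was called at S20 against C0 (12.1% of all genes), namely Nqo1 at 3.69, 4.51 and 5.63 RPKM (1.03, SE 0.24, adjusted p = 0.00077). Gclc was at 78.0, 70.5 and 73.5 RPKM at S20 and at 31.4 to 60.1 RPKM at X20, with no overlap, and fell by 0.70 (SE 0.24, adjusted p = 0.047). The X20 livers numbered 1 to 3 were at 60.1, 56.3 and 58.2 RPKM and those numbered 4 to 6 at 41.2, 35 and 31.4 RPKM. Against S20, the first 3 alone gave -0.34 (adjusted p = 0.44) and the last 3 alone -1.05 (adjusted p = 0.016). By the assumed order, the S20 livers share their period with the last 3 and not with the first 3. With the period as covariate Gclc was still called (-0.72, adjusted p = 0.044), and the part of the period in this split was not tested. The call of Gclc was lost without any single S20 replicate. With either scaling Nqo1 was called lower at X20 against S20 as well (-0.78 and -0.77), and with the period as covariate it was not (-0.50, adjusted p = 0.14).

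At 48 h most members differed between PH and sham. At S48, 1 of 9 members, Txnrd1, was called against C0 (0.63), beside 8.88% of all genes. All S48 livers came from 1 period, and with the period as covariate Txnrd1 was not called (0.36) while Hmox1 was called higher (1.34, adjusted p = 0.0055). Without C0 replicate 8, Hmox1 was called higher at S48 too (1.09, SE 0.31, adjusted p = 0.012). With either scaling Gclc was called lower at S48 as well (-0.57 and -0.56). Nqo1 was at 1.64, 2.21 and 2.47 RPKM at S48, below all 5 X48 livers, and rose by 1.87 (SE 0.26, adjusted p = 1.50e-08), a 3.65-fold difference. Srxn1 was at 6.86, 9.61 and 12.8 RPKM at S48 and at 18.9, 24.1, 29.3, 25.5 and 25.3 RPKM at X48 (1.34, SE 0.19, adjusted p = 1.50e-08). Nfe2l2 (0.81), Gsr (0.80), Txnrd1 (0.78) and Keap1 (0.55) were also called higher, and their X48 livers lay above all S48 livers. Gclc (0.33, SE 0.25), Gclm (0.28, SE 0.15) and Hmox1 (0.44, SE 0.38) were not called, although the Hmox1 ranges of X48 (6.65 to 8.56 RPKM) and S48 (4.58 to 6.60 RPKM) did not overlap.

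At 48 h the median of all genes was also 0.27 higher after PH, and 90.1% of all called genes were called higher, against 30.7% with the median scaling and 50% with the gene-wise scaling. With either scaling, only Nqo1 and Srxn1 were called, at 1.54 (adjusted p = 6.44e-07) and 1.02 (adjusted p = 1.45e-06) with the gene-wise scaling. With that scaling, Nfe2l2 (0.49), Gsr (0.47), Txnrd1 (0.45) and Keap1 (0.22) had adjusted p below 0.05 and stayed under the fold limit, and with the median scaling Keap1 was at 0.10 (adjusted p = 0.38). The call of Keap1 was also lost without S48 replicate 1. Hepatocyte markers were called lower in 3 of 8 genes in the same comparison, beside 2.69% of all genes. Stellate cell markers were called higher in 3 of 6 genes and neutrophil markers in 1 of 6 genes, beside 24.5% of all genes. The part of these cells in the members' values was not tested. Macrophage (8 genes), endothelial (5 genes) and cholangiocyte markers (4 genes) had no calls there.

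Whether the difference between PH and sham changed from one time to the next was tested directly, as a difference of differences between neighboring times. Of 36 such tests, 6 were called, all 6 between 20 h and 48 h and all toward higher values at 48 h, beside 13.2% of all genes called and 12.5% called higher. These were Nqo1 (2.57, SE 0.36, adjusted p = 5.99e-08), Srxn1 (1.04), Gclc (1.02), Keap1 (0.81), Gsr (0.70) and Nfe2l2 (0.63). The calls of Gclc (adjusted p = 0.037) and Nfe2l2 (adjusted p = 0.047) were lost without any single S20 replicate and without some of the S48 and X48 livers. Nqo1 and Srxn1 were called with either scaling, and Keap1 with the gene-wise scaling only (0.57, against 0.45 with the median scaling). From 1 to 4 h, from 4 to 10 h and from 10 to 20 h, 0 of 9 members were called each time with limma, beside 4.68%, 3.73% and 0.104% of all genes, and 2, 3 and 1 had an unadjusted p below 0.05.

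Time of day was addressed with groups that share a ZT. Without surgery, 1 of 9 members was called between ZT6 and ZT2 (C4 against C0, 7.89% of all genes), namely Nfe2l2 at 16.9, 17.1 and 15.4 RPKM (0.52, SE 0.15, adjusted p = 0.011), all above the C0 livers. That call was lost without C4 replicate 2, with either scaling (0.43 and 0.46) and with the period as covariate (0.37, adjusted p = 0.26). Without C0 replicate 8, Hmox1 was called higher at C4 as well (0.96, SE 0.31, adjusted p = 0.022). With the period as covariate, Hmox1 was not called there (-0.13). All C4 livers came from 1 period that no S4 or X4 liver shared, so the control and the period cannot be told apart here without the C0 livers that bridge them. Against C4, Nfe2l2 fell by 1.12 at X4 and by 1.07 at S4. Of the 9 members, 7 were called at X4 against C4 and 6 at S4 against C4, beside 45.6% and 43.3% of all genes. Nqo1 fell by 0.84 at X4 and by 1.12 at S4 in these comparisons, the former lost without C4 replicate 2 or X4 replicate 6 and with either scaling (-0.59, adjusted p = 0.058, and -0.60, adjusted p = 0.059). The X4 call of Keap1 (-0.66) was lost with either scaling too (-0.41 and -0.42). Hmox1 rose by 1.75 at X4 and 1.81 at S4, and by 3.01 and 3.12 with the period as covariate. Erythroid markers were called lower in 4 of 5 genes at X4 and at S4 against C4, beside 33.9% and 31% of all genes, and their part in these values was not tested. At 28 h, the next ZT6, 5 of 9 were called against C4 (32.7%), and Gclc was again the lowest (it fell by 2.14, SE 0.28, adjusted p = 8.29e-09).

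At ZT22, X44 was set against the sham livers of 20 h, and 5 of 9 members were called higher and none lower (27.1% of all genes called, 21.4% called higher). No X44 liver shared a period with an S20 liver, so operation and period cannot be told apart here without the groups that bridge the periods. Txnrd1 rose by 1.26 (SE 0.16, adjusted p = 6.09e-10), Hmox1 by 1.35, Srxn1 by 0.88, Nfe2l2 by 0.80 and Gsr by 0.76. The Hmox1 difference rested on X44 replicate 2 (20.9 RPKM, the others at 8.09 and 6.91 RPKM) and was no longer called without it. With the median scaling 2 of 9 were called, Txnrd1 and Srxn1, while Hmox1 (1.01, adjusted p = 0.051), Nfe2l2 (0.45) and Gsr (0.42) were not. With the gene-wise scaling the same 5 were called, as they were with the period as covariate. Nqo1 was not called here (0.42, SE 0.29), and S20 was itself higher than C0. With the period as covariate it was called (0.81, adjusted p = 0.020). At 4 weeks, X4W against C4W gave 0 of 9 calls with limma (0.065% of all genes), and 1 member had an unadjusted p below 0.05. With 2 livers on each side, differences were hard to detect.

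The other genes of the pathway were taken from 8 lists of textbook members, and their counts are given against C0 unless stated. Of 11 regulators and partners of Nrf2, 4 were higher and 2 lower at X4 against C0, beside 11.2% of all genes higher and 26.9% lower. Maff, a small Maf that can pair with Nrf2, had the largest rise of that list (2.71 at X1, SE 0.24, adjusted p = 1.42e-14), which was present at 1 h when no member was called, and fell by 1.12 at X1W. Mafk was higher at X1 (0.86), X4 (0.95) and X10 (0.99), Mafg fell by 1.07 at X4, and Bach1, a repressor of AREs that also pairs with small Mafs, rose by 1.24 at X4. At X1 against S1, where no member was called, Maff was the 1 of the 11 called, higher by 1.00 (SE 0.26, adjusted p = 0.036), beside 0.624% of all genes called higher.

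**Figure D4:**
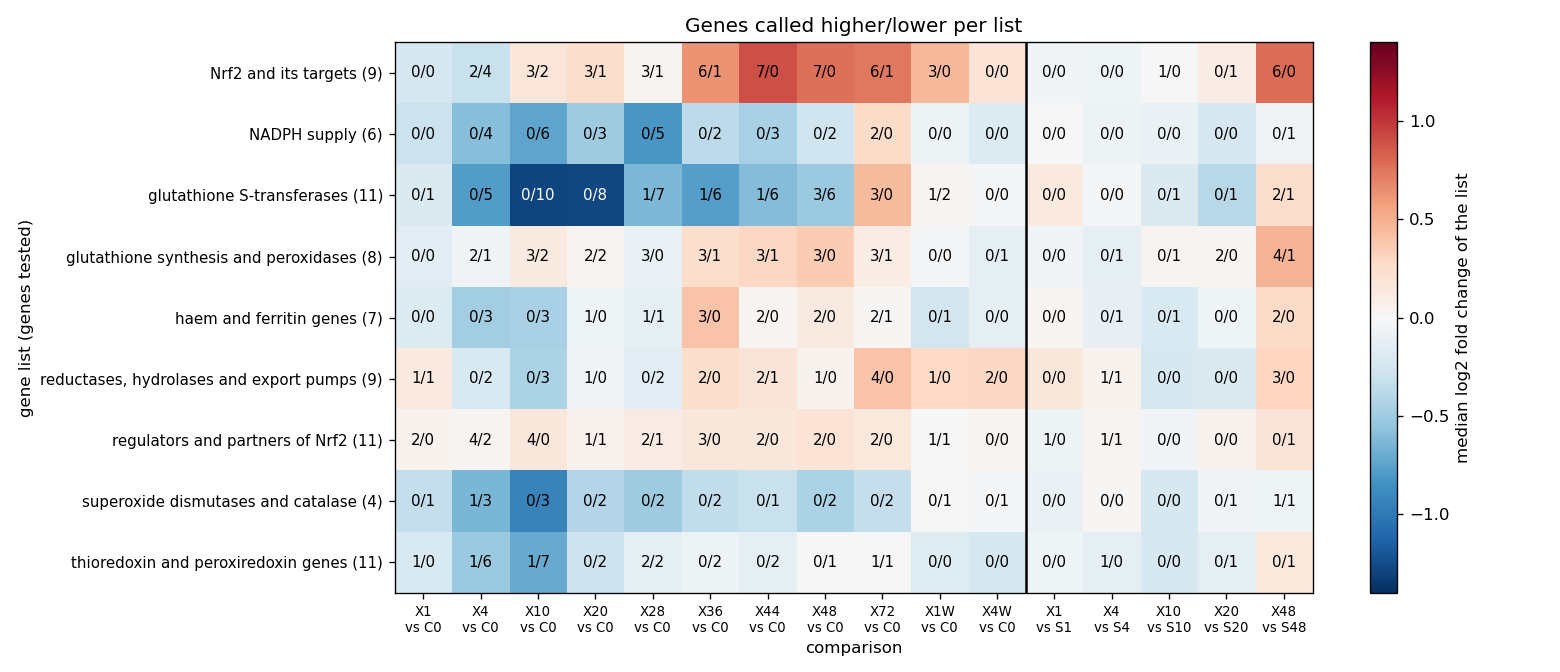
Numbers of genes called higher and lower (higher/lower in each cell) in each gene list, for the groups after PH against C0 (left of the line) and PH against sham (right), with color giving the median log2 fold change of the list. The glutathione S-transferases hold 0 higher and 10 lower of 11 at X10. The row of Nrf2 and its targets, the 9 detected members with Nfe2l2 and Keap1 among them, holds 7 higher and 0 lower at X44 and X48.

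The glutathione S-transferases, which conjugate electrophiles to glutathione and include classic Nrf2 targets, were called lower in most members from X10 to X28. At X10 against C0, 0 of 11 were called higher and 10 lower, with a median of -1.28, where 21.2% of all genes were higher and 15.2% lower and the median gene changed by 0.07. The sham livers gave the same numbers at S10 (0 higher and 10 lower, median -1.11, beside 17.9% of all genes higher and 11.2% lower). Gsta2 had the largest fall (it fell by 3.54 at X20, SE 0.39, adjusted p = 1.63e-11), and Gsta3, an abundant hepatic form, fell by 2.75 at X10. At X72, 3 of 11 were higher and none lower, a share near the 26.6% of all genes called higher, with Gsta1 rising by 4.28 (SE 0.61, adjusted p = 2.24e-08) and Gstm3 by 2.15. Reads that fit several copies of these closely related genes were divided among them, so the values of single Gst genes are uncertain.

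NADPH is the reductant used by Gsr, Txnrd1 and Nqo1. Among 6 genes of NADPH supply and the pentose phosphate pathway, 0 were higher and all 6 were lower at X10 (median -0.74), where 15.2% of all genes were lower. G6pdx, the entry enzyme of the pentose phosphate pathway, fell by 1.39 at X28 (SE 0.31) and rose by 1.05 at X72. Of 11 thioredoxin and peroxiredoxin genes, 1 was higher and 7 lower at X10, and Txnip, the thioredoxin-binding protein, rose by 2.11 at X1 and fell by 1.48 at X36. Of the 4 superoxide dismutases and catalase, 3 were lower at X10, with Cat falling by 2.02 (SE 0.10, adjusted p = 6.68e-27), whereas Sod2, the mitochondrial enzyme, rose by 1.21 at X4.

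Of 10 listed genes for glutathione synthesis and peroxidases, 8 were tested, and Ggt1 and Gpx2 were under the detection threshold in every library. At X48 against S48, 4 of the 8 were higher and 1 lower (24.5% and 2.69% of all genes), the latter being Chac1, which degrades glutathione (it fell by 1.55, SE 0.43, adjusted p = 0.0026). Gpx3, the secreted peroxidase, rose by 1.81 at X20. Among 7 heme and ferritin genes, 0 were higher and 3 lower at X4 (11.2% and 26.9% of all genes), when Hmox1 was at its highest after PH, and Slc40a1, the iron exporter ferroportin, fell by 2.56 (SE 0.24, adjusted p = 6.08e-14). Slc48a1, a heme transporter, rose by 1.05 at X48. Of 9 tested reductases, hydrolases and export pumps (Abcc1 was under the threshold), Osgin1 fell by 3.17 at X1 (SE 0.40, adjusted p = 3.31e-09) and rose by 1.53 at X44, and 6 of 9 were lower at S4, beside 22.7% of all genes.

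Over the 19 group means, the members' correlations are given as a description with no test, since group means share clock times and the scaling of each library to its total. Nfe2l2, Keap1, Nqo1 and Gsr had correlations (Pearson's r) between 0.70 and 0.85 with each other. Hmox1 correlated with Txnrd1 (0.77) and inversely with Gclc (-0.73), and its r with Nfe2l2 was -0.02. Gclm had an r of 0.75 with Nfe2l2, 0.74 with Nqo1, 0.68 with Keap1 and 0.66 with Gclc. Among 10546 genes with a mean above 0 on the log2 scale, the profile most like that of Nfe2l2 was Hdac3 (0.93), that of Nqo1 was Dtnb (0.93), that of Keap1 was Zdhhc18 (0.95) and that of Gclc was 4933403F05Rik (0.93). Gsr was most like Ywhah (0.98), Gclm like Cyp2r1 (0.97), Hmox1 like Ptpn12 (0.95), Srxn1 like Enpp4 (0.96) and Txnrd1 like 2410002O22Rik (0.96).

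Ranked by group mean, neighboring groups overlapped nearly throughout. The ranking sets groups with the closest means side by side, which favors overlap, and no share over all genes is given, so these counts are a description only. For Gclc, only the highest group, X4W (111 ± 5.67 RPKM, SD, n = 2), and the step from X10 (24.8 ± 2.56, SD, n = 6) down to X28 (18.4 ± 2.37, SD, n = 3) were free of overlap, among 18 neighboring steps. For Hmox1 the order was led by S4 (19.6 ± 7.34 RPKM, SD, n = 5) and X4 (18.5 ± 5.98, SD, n = 3), which overlapped, and ended with X1 (2.57 ± 0.80, SD, n = 6). For Keap1, Srxn1 and Gsr, 0 of 18 steps were free of overlap, for Nfe2l2 2 were, and for Nqo1, Gclm, Hmox1 and Txnrd1 1 each.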

How the data were processed

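Poly(A)-selected, strand-specific RNA-Seq libraries of single mouse livers were processed by the authors, who trimmed reads with Cutadapt and prinseq-lite, mapped them to mm9 with TopHat2 2.0.13 and Bowtie2 (SAMtools 0.1.19 is also named in the submitters' processing notes), counted them per Ensembl gene on the transcribed strand with featureCounts and split reads with several positions among them. The deposited values are log2 RPKM, so a change in abundant transcripts shifts the others, and genes without reads stand at -14.29 (52.9% of values). Read totals were not given. Depth was estimated from the RPKM that 1 read gives, and a median of 83.4% of low values per library (45.0% at the lowest) came within 0.05 of a whole read, so no count test was run. The number of reads limits precision for low genes only.

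From these values, 15396 genes above -1.5 in at least 1 library were fitted with limma 3.58.1 (R 4.3.3) on log2(RPKM + 0.25), with 1 coefficient per group over all 19 groups and a prior variance that follows the mean. P-values were adjusted within each of 27 comparisons and 4 differences of neighboring PH against sham comparisons. They measure the spread between individual livers within groups. The paper states that mice were operated on and killed in small sets. The spread between such sets is measured only where a group holds more than 1 of them. The script was tested on simulated data. Tables and figures used Python 3.11.15, numpy 2.4.6, pandas 2.3.3 and matplotlib 3.10.9. Positions of genes are from GENCODE on mm9, and promoter windows from RefSeq (GRCm38.p6).

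Groups followed the labels. Of 84 value columns, 4 matched no labelled sample and were not used. They carry the name of the sham group of 4 h with replicate numbers beyond those of the labels, so that the comparisons at 4 h rest on the matched livers alone. Further, 7 labelled samples (3 of X4, 3 at 60 h and 1 of X4W) were not analysed here. The members, gene lists and tests were chosen with earlier results of these data known. All members are named, and so are, of each other list, the gene with the largest called rise and the gene with the largest called fall after PH or against sham, given a mean log2 RPKM above 0 in a group compared, and the genes most like each member. Mafk, Mafg, Bach1, Gsta3 and Gstm3 were chosen after their values were seen. Other pseudocounts, filters, scalings, subsets of livers and covariates were tried, and the gene-wise scaling and the fit without C0 replicate 8 were added after seeing the data. Replicate numbers were checked for pairing and, over 97 same-numbered pairs, the correlation of deviations from group means ran from -0.19 to 0.30, so no block was used.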

Additional observations from a re-analysis of the deposited data

Results flagged for a closer look

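Within groups of 4 to 10 livers, 5 of 72 sets of values held a liver far from the others by Dixon's criterion, which chance alone passes in about 1 of 20 sets. Nqo1 in X1 replicate 5 stood at 2.47 RPKM, above the other X1 livers (1.22 to 1.587 RPKM). In X36 replicate 1, Nqo1 was at 3.735 RPKM, below the other X36 livers (5.369 to 5.953 RPKM). Gclm reached 60.6 RPKM in X36 replicate 2, where the others were at 31.8 to 39 RPKM, and Hmox1 reached 19.6 RPKM in X36 replicate 4, where the others were at 8.882 to 11.97 RPKM. Gsr in X48 replicate 1 was at 24.02 RPKM, below the other 4 livers (36.11 to 40.28 RPKM).

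From 20 h to 48 h the difference of PH from sham moved toward higher values for 6 members, beside 13.2% of all genes called. This was the limma test of the difference itself with Benjamini-Hochberg adjustment. For Gclc, Nqo1 and Keap1 the difference was negative at 20 h and positive at 48 h. With the values as deposited, only Gclc of these was called at 20 h, and only Nqo1 and Keap1 at 48 h. The 48 h difference of Gclc was -0.12 with the median scaling and 0.003 with the gene-wise scaling. The change of the difference was called for Nqo1 and Srxn1 with either scaling, and for Keap1 with the gene-wise scaling only. On the log2 scale the change of the difference was 2.565 for Nqo1 (SE 0.36, adjusted p = 5.99e-08), 0.8127 for Keap1 (SE 0.14, adjusted p = 1.23e-05) and 1.045 for Srxn1 (SE 0.26, adjusted p = 0.0025). For Gsr it was 0.6964 (SE 0.19, adjusted p = 0.0056), for Gclc 1.025 (SE 0.35, adjusted p = 0.037) and for Nfe2l2 0.6314 (SE 0.23, adjusted p = 0.047).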

How the results depend on the processing

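No call of a member changed sign under any alternative run. Of the 50 calls against C0 after PH, 8 against sham, 13 of sham against C0, 24 against other controls and 6 changes of the PH against sham difference, 24, 2, 5, 6 and 1 remained when the adjusted p had to be below 1e-07, and X10 against S10, X20 against S20 and X48 against S48 then had 0, 0 and 2. With either scaling of the libraries (to the same median, or to a median gene-wise difference of 0), the calls against sham numbered 5, with 2 at X20 against S20 and 2 at X48 against S48, and the changes of the difference numbered 2 and 3. At X10 against S10 (1 call), a pseudocount of 1 and the assumed experimental period as a covariate gave 0 calls, and the 2 groups alone or PH replicates 4 to 6 gave 2. At X20 against S20 (1 lower call), a pseudocount of 1 and the stricter filter gave 2 lower calls, PH replicates 1 to 3 gave 2 higher calls and none of Gclc, and no filter or the 2 groups alone gave 0. Leaving out 1 liver at a time, in groups of 5 livers or fewer only, gave 0 to 1 call at X10 against S10, 0 at X20 against S20, 5 to 6 at X48 against S48 and 48 to 51 after PH against C0. No X1, X10, X20, X36 or S1 liver was left out in this way, and of the C0 livers only replicate 8 was, in a separate fit. The cause of these moves was not tested. The replicate numbers did not pair the livers (no comparison with 3 or more pairs had all correlations above 0.1). With the replicate number as a block, the counts were 47, 8, 15, 26 and 6, and 20 samples correlated best with their own number. Depth limits what can be said of Slc7a11, with at most 16.9 estimated reads.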
